A study of Mus musculus with 6 samples.

Results

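Small leucine-rich proteoglycans are secreted matrix proteins built from a row of leucine-rich repeats, most of which carry sulfated sugar chains. The transcripts of 9 of them, Dcn (decorin), Bgn (biglycan), Aspn (asporin), Lum (lumican), Fmod (fibromodulin), Prelp (prolargin), Omd (osteomodulin), Ogn (mimecan) and Podn (podocan), were followed here, out of 55385 mouse genes in the count table. They were chosen by gene symbol, through the Ensembl ID of each row, and all 9 were found. Bulk RNA-seq was made from PDVC57, an established mouse squamous carcinoma line of keratinocyte origin. There were 3 libraries with the genotype Sox2 KO (knockout) and 3 with Sox2 overexpression, and the series' design describes tumour cells with low or high Sox2 recovered from grafts. Sox2 is a transcription factor of stem cells, and the study looked for Sox2-driven programmes of tumour cells that shape neutrophils. No library of unmodified PDVC57 cells was analysed here, so each difference is between overexpression and knockout, and neither arm has a baseline. The host animal, the number of clones behind each genotype, and the way the cells were separated from the graft are not given in the sources used here.

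The family works at the surface of collagen fibrils. Decorin, biglycan, lumican and fibromodulin bind fibrillar collagens and set fibril width and spacing, and free decorin and biglycan also bind growth factors such as TGF-beta and cell-surface receptors such as Toll-like receptors. In skin and in carcinomas the main sources are fibroblasts of the dermis and stroma, whereas keratinocytes make little of most members. Prolargin differs in that it binds heparan sulfate and perlecan, and is known for tying basement membranes to the connective tissue beneath. The members fall into classes by protein sequence: decorin, biglycan and asporin in class I, lumican, fibromodulin, prolargin and osteomodulin in class II, mimecan in class III and podocan in class V.

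Mouse genes received 31247976 to 38543221 counts per library, and Sox2 itself was 1.08 ± 0.377 with knockout and 103 ± 24.9 CPM with overexpression (SD, n = 3 each). CPM are counts scaled to the TMM-normalized size of the library. The markers of other cell types moved together with the groups. Of 12 fibroblast markers, none of them a member of the family, 11 were lower with overexpression, and their summed level was 52730 to 81150 CPM in the knockout libraries and 280.3 to 429.8 CPM in the overexpression libraries. Col1a1, Col1a2 and Col3a1 made up most of these sums, with knockout means of 23280, 17480 and 26700 CPM. No fibroblast marker was at 0 throughout a group. Of 20 squamous epithelial markers 15 were higher and 0 lower, with sums of 4829 to 8237 CPM with knockout and 14270 to 18700 CPM with overexpression, whereas 3 were higher and 1 lower when libraries were scaled to this same list. Of 8 mural cell markers 7 were lower and 1, Notch3, was higher, with sums of 322.3 to 476.6 and 91.2 to 132.3 CPM (knockout first). The Notch3 call was lost when scaled to the epithelial list, and without knockout replicate 2 or 3 or overexpression replicate 2 or 3. Of 7 tested endothelial markers 6 were lower (31.4 to 106.7 and 13.5 to 20.2 CPM). White blood cell markers were lower in 3 of 5 tested (28.7 to 152.4 and 13.8 to 28.3 CPM). The rest of these 5 had log2 fold changes above 0, up to 0.857, and were not called. Each fit that left out a library filtered the 8 white blood cell genes anew. Such fits called 5 lower without knockout replicate 1 or overexpression replicate 1, and 4 lower and 1 higher without overexpression replicate 3. Knockout replicate 3 stood apart in both lists, with 106.7 CPM of endothelial markers beside 31.4 and 50.4, and 152.4 CPM of white blood cell markers beside 28.7 and 50.3. Of 5 tested cartilage, bone and tendon markers 2, Scx and Col2a1, were higher, and 0 were when scaled to the epithelial list; their list summed to 248 to 367 and 359 to 475 CPM. Among the markers outside the fibroblast list, Ibsp was at 0 in every knockout library and Tnmd in every overexpression library. The labels name a carcinoma line, and its keratinocyte genes were present in both groups, but the knockout libraries also held fibroblast genes at high level. In bulk samples, fewer cells of a type and less RNA per cell cannot be told apart, and the part of fibroblast RNA in the results below was not tested.

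Of the 9 proteoglycan genes, 8 fell with Sox2 overexpression, 0 rose, and Fmod did not pass the test (edgeR quasi-likelihood test, adjusted p under 0.05 over all 18504 tested genes). Over all tested genes, 18.0% were lower and 13.6% higher by the same rule. For 7 of the 9, every knockout library lay above every overexpression library, as was the case for 26.5% of all tested genes. The median log2 fold change of the 9 was -7.88, beside -0.016 over all tested genes. The 9 did not move as a block: the log2 fold changes ran from -8.77 for Dcn to -0.53 for Fmod, and all were below 0 in each of the 13 alternative fits. All 9 passed the filter on low counts. Podn did so through its knockout libraries alone, so its inclusion depended on the group in which it was high. Ogn and Omd reached the filter level of 0.306 CPM in 3 knockout and 2 overexpression libraries. They too needed knockout libraries to pass, so their inclusion also depended on that group.

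**Figure D1:**
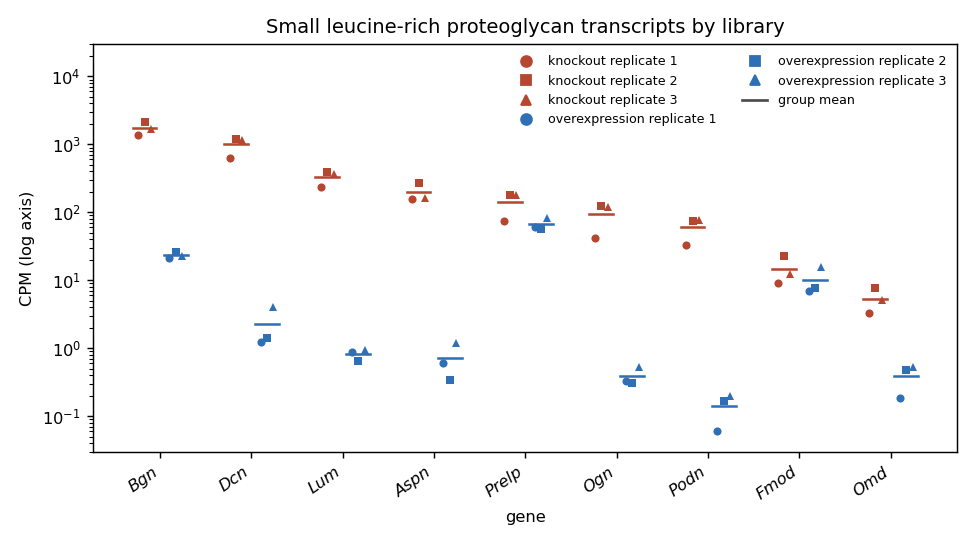
Level of each of the 9 proteoglycan transcripts in CPM on a log axis, by gene; symbols are the 6 libraries and lines the group means (n = 3 each). The knockout and overexpression symbols are apart for 7 genes and overlap for Prelp and Fmod.

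Class I held the 2 genes with the highest level per length in the knockout libraries, Bgn and Dcn, and all 3 of its genes fell. Dcn encodes decorin, which binds collagen and can hold TGF-beta in the matrix. The knockout libraries, in the order of replicates 1, 2 and 3, held 21441, 36140 and 42890 Dcn counts, and the overexpression libraries 41, 42 and 161. All 3 overexpression libraries were far below all knockout libraries, and overexpression replicate 3 stood above its replicates. The mean fell from 998 ± 321 to 2.25 ± 1.58 CPM (SD, n = 3 each). As a log2 fold change this was -8.77, standard error 0.58, 95% interval -10.10 to -7.45 (edgeR, adjusted p = 9.89e-06). Without overexpression replicate 3 the log2 fold change was -9.53.

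Bgn encodes biglycan, the closest relative of decorin and, when released from the matrix, a ligand of Toll-like receptors. It had 46943, 64260 and 61022 counts with knockout, and 704, 762 and 888 with overexpression. Its overexpression libraries lay close to each other, at 21.5 to 25.7 CPM. The mean of Bgn fell from 1722 ± 377 to 23.2 ± 2.25 CPM (SD, n = 3 each; log2 fold change -6.21, standard error 0.25, edgeR adjusted p = 1.56e-06), and the 95% interval of -6.79 to -5.64 did not overlap that of Dcn. Aspn encodes asporin, which carries a run of acidic residues in place of the sugar attachment site and can oppose TGF-beta and BMP signals. It had 5458, 8142 and 5881 counts with knockout, and 20, 10 and 47 with overexpression. The groups did not overlap, and the mean fell from 197 ± 62.7 to 0.712 ± 0.434 CPM (SD, n = 3 each; log2 fold change -8.06, standard error 0.45, edgeR adjusted p = 4.19e-06). Without overexpression replicate 3, the library with most Aspn counts in its group, the log2 fold change was -8.65.

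Class II divided. Lum encodes lumican, a keratan sulfate proteoglycan that spaces collagen fibrils in cornea and skin. It had 8135, 11910 and 13200 counts with knockout, and 29, 19 and 38 with overexpression. The groups were far apart and the overexpression libraries close together. The mean fell from 331 ± 81.9 to 0.829 ± 0.166 CPM (SD, n = 3 each). The log2 fold change of Lum was -8.62, standard error 0.31, and its adjusted p of 1.19e-06 was the smallest of the 9 (edgeR). Omd encodes osteomodulin, which is best known from bone matrix, and had the lowest level per length of the 9 with knockout. It had 114, 232 and 185 counts with knockout, and 6, 14 and 21 with overexpression. No overexpression library reached the level of a knockout library. The mean fell from 5.35 ± 2.18 to 0.395 ± 0.186 CPM (SD, n = 3 each; log2 fold change -3.74, 95% interval -4.87 to -2.61, edgeR adjusted p = 0.000595).

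The other class II genes, Prelp and Fmod, had the smallest differences of the 9. Prelp, the gene of the basement membrane anchor prolargin, had 2538, 5384 and 6523 counts with knockout, and 1981, 1688 and 3314 with overexpression. The groups overlapped, since knockout replicate 1 at 74.3 CPM was below overexpression replicate 3 at 83.7 CPM. The mean fell from 143.5 ± 60.0 to 67.04 ± 14.5 CPM (SD, n = 3 each), which on the log2 scale was -1.10, standard error 0.32, 95% interval -1.84 to -0.36 (edgeR, adjusted p = 0.032). This call was lost without knockout replicate 2 (adjusted p = 0.11) or 3 (0.0912) and without overexpression replicate 1 (0.0793) or 2 (0.119), and over all alternatives the adjusted p of Prelp ranged from 3.06e-09 to 0.119. Fmod encodes fibromodulin, a collagen-binding protein of tendon and cartilage that also binds TGF-beta. It had 311, 688 and 447 counts with knockout, and 226, 226 and 627 with overexpression. Overexpression replicate 3 lay above knockout replicates 1 and 3, so the groups overlapped. Fmod was at 14.7 ± 7.13 and 10.1 ± 4.97 CPM (SD, n = 3 each; log2 fold change -0.53, 95% interval -1.47 to 0.40, edgeR adjusted p = 0.356), and -0.068 without knockout replicate 2. It passed the threshold only with the epithelial markers as the scaling reference (adjusted p = 0.000195, with a range of 0.000195 to 0.919 over the alternatives).

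Ogn, of class III, encodes mimecan, a small keratan sulfate proteoglycan also called osteoglycin. It had 1412, 3701 and 4358 counts with knockout, and 11, 9 and 21 with overexpression. The groups did not overlap. The mean fell from 94.3 ± 45.9 to 0.390 ± 0.123 CPM (SD, n = 3 each; log2 fold change -7.88, standard error 0.53, edgeR adjusted p = 1.08e-05). Podn, of class V, encodes podocan, which binds collagen and slows smooth muscle growth. It had 1137, 2247 and 2799 counts with knockout and 2, 5 and 8 with overexpression. The overexpression counts are near the 3 counts that an observed 0 allows, so the size of the fall rests on few counts. The mean went from 61.4 ± 24.4 to 0.144 ± 0.0738 CPM (SD, n = 3 each; log2 fold change -8.68, 95% interval -9.81 to -7.54, edgeR adjusted p = 4.74e-06).

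**Figure D2:**
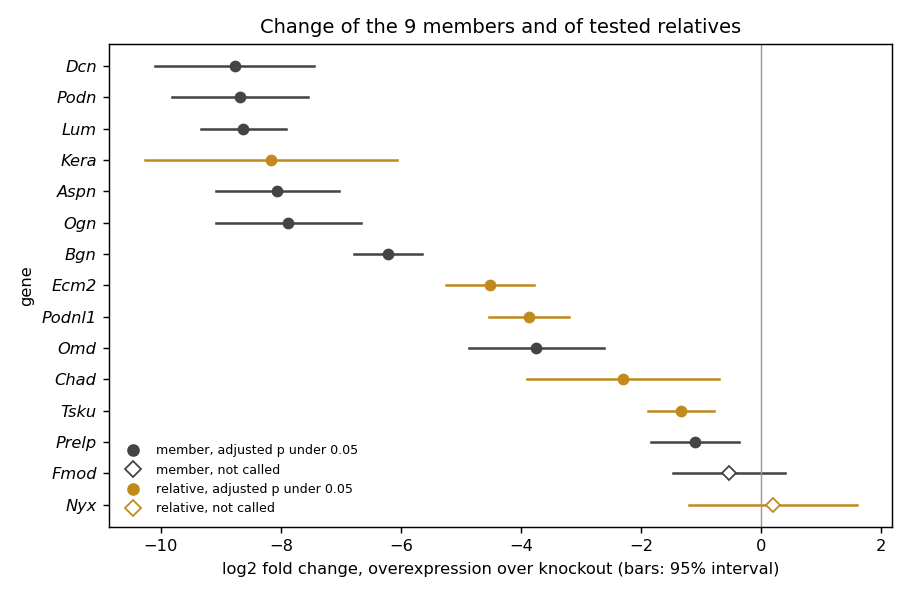
Log2 fold change, overexpression over knockout, of the 9 genes (grey) and of the 6 tested relatives (ochre), with bars for the 95% interval; filled circles have an adjusted p under 0.05 (edgeR, 3 libraries per group). The intervals of Prelp and Fmod lie to the right of those of the other 7 members, which all end at or below -2.61, and the fitted value of Kera, at 0 counts with overexpression, depends on the prior count.

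The separate behaviour of Prelp and Fmod was also measured as a ratio within each library, a comparison made after their values were seen. The log2 ratio of Prelp to Dcn was -3.08, -2.75 and -2.72 in the knockout libraries, and 5.59, 5.33 and 4.36 in the overexpression libraries. Prelp was below Dcn in each knockout library and above it in each overexpression library, per length too. The log2 ratio of Fmod to Dcn went from -6.14 ± 0.435 to 2.28 ± 0.280 (SD, n = 3 each). Against Omd, the member nearest to them in size of change, the log2 ratio rose by 2.81 for Prelp and by 3.29 for Fmod, with no overlap between groups. The log2 ratio of Prelp to Fmod was 3.29 ± 0.502 and 2.81 ± 0.373 (SD, n = 3 each, knockout first), with overlapping libraries. Since Prelp and Fmod were picked for their small differences, these ratios describe the libraries and carry no test.

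Levels were compared between genes per length, as CPM per kilobase of the union of a gene's exons. In the knockout libraries the order was Bgn (282 ± 61.8), Dcn (171 ± 55.0), Lum (135 ± 33.5), Aspn (83.5 ± 26.6), Prelp (39.7 ± 16.6), Ogn (36.7 ± 17.9), Podn (14.4 ± 5.70), Fmod (4.44 ± 2.16) and Omd (2.38 ± 0.968; SD, n = 3 throughout). Neighbours in this order overlapped over the libraries, except that Bgn was above Dcn, Aspn above Prelp and Podn above Fmod in every pair of libraries. In the overexpression libraries Prelp came first, at 18.5 ± 4.02 CPM per kilobase, followed by Bgn at 3.81 ± 0.368, Fmod at 3.06 ± 1.5 and Dcn at 0.385 ± 0.271 (SD, n = 3 each). Lum, Aspn, Omd and Ogn followed between 0.338 and 0.152, and Podn was last at 0.0337. The steps from Prelp to Bgn, from Fmod to Dcn and from Ogn to Podn were without overlap, and the other neighbours overlapped. Within single overexpression libraries the order varied. Dcn was below Lum in replicate 1 (0.214 and 0.361) and above it in replicate 3 (0.697 and 0.392). With the longest transcript as length the order was the same in both groups, although the level of Bgn was then 646 in place of 282 in the knockout group.

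The make-up of the proteoglycan pool therefore differed between the groups. Dcn and Bgn together made 59.2% of the summed per-length level with knockout, and Lum another 16.9% to 18.2%. Prelp made 3.76% to 6.09% of it in the knockout libraries and 67.6% to 71.5% in the overexpression libraries. Fmod went from 0.457% to 0.722% of the pool up to 8.92% to 14.2%. The pool itself was 547, 952 and 811 CPM per kilobase in the knockout libraries and 23.4, 23.3 and 33.7 in the overexpression libraries, so these shares are of unequal totals.

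**Figure D3:**
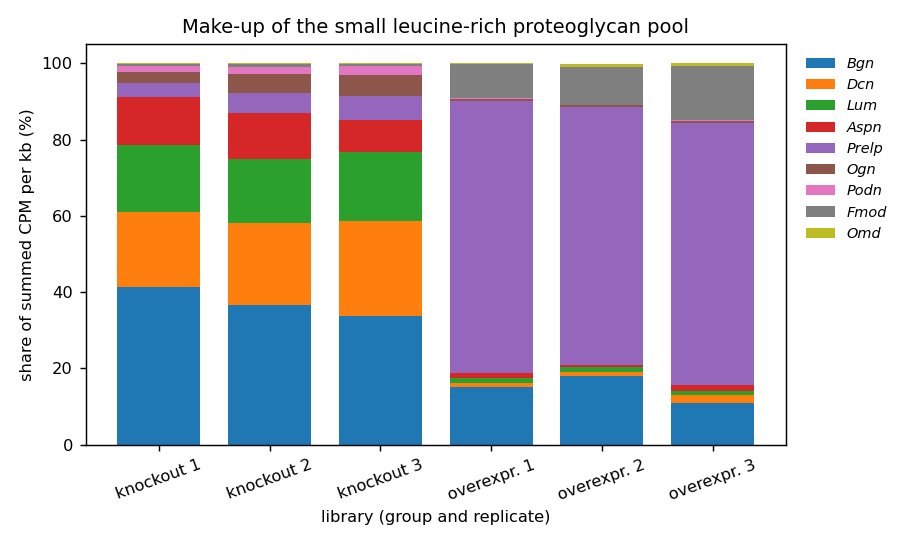
Share of each gene in the summed level per length (CPM per kilobase of exon union) of the 9 genes, in %, for each of the 6 libraries. Bgn, Dcn and Lum fill most of the knockout bars, and Prelp fills 67.6% to 71.5% of the overexpression bars.

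Several of these genes sit side by side in the genome (GENCODE M21 annotation of GRCm38), and Prelp and Fmod, the members with the smallest differences, are neighbours. Dcn (chromosome 10, 97479609 to 97518143) is followed after 46984 bases by Lum (97565128 to 97572703), and then by the relatives Kera and Epyc. On chromosome 13 stand Ecm2, Aspn (49544443 to 49567565), Omd (49582462 to 49592822) and Ogn (49608046 to 49624501), with 14896 bases between Aspn and Omd and 15223 between Omd and Ogn. Chromosome 1 holds Optc, Prelp (133910304 to 133921414) and Fmod (134037254 to 134048277), with 115839 bases between the last pair. Bgn (chromosome X, 73483602 to 73495933) and Podn (chromosome 4, 108014791 to 108096445) have no family member as nearest neighbour. All 9 are protein-coding.

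The tested family genes of the chromosome 10 and chromosome 13 clusters all fell, and the flanking genes looked at, Btg1 on one side of the first and Nol8 on one side of the second, did not pass the test. Under the epithelial scaling both were lower, as was Btg2 beyond Fmod. The other flanks of these clusters were not analysed. Btg1, 856799 bases from Dcn on the side away from Lum, was at 563 ± 78.8 and 590 ± 32.0 CPM (SD, n = 3 each, knockout first), with a log2 fold change interval of -0.31 to 0.45 (adjusted p = 0.785, edgeR). Nol8, beyond Ogn, was at 23.4 ± 1.18 and 21.1 ± 7.33 CPM (SD, n = 3 each; adjusted p = 0.684, edgeR). Cenpp, a centromere gene whose span on the other strand covers Ecm2, Aspn, Omd and Ogn, had a log2 fold change interval of -0.47 to 1.74 (adjusted p = 0.354, edgeR). On chromosome 1, Btg2 beyond Fmod had an interval of -0.83 to 0.021 (adjusted p = 0.135, edgeR). Of the other flanking genes, Haus7 beside Bgn was at 37.3 ± 6.59 and 56.1 ± 12.0 CPM (SD, n = 3 each; edgeR adjusted p = 0.0552, and 0.0236 to 0.175 over the alternatives), so its call depends on the fit. Echdc2 beside Podn had an adjusted p of 0.137 (edgeR), while Atp2b3 and Slc1a7 did not pass the count filter. Scp2, which overlaps the span of Podn without sharing an exon, was higher with overexpression, at 64.0 ± 2.52 and 119 ± 7.25 CPM (SD, n = 3 each; adjusted p = 0.00109, edgeR), but its log2 fold change under the epithelial scaling was -0.38 (adjusted p = 0.335). Aspn shares 7 exon bases with Cenpp, and Prelp shares 350 with the antisense gene Gm15851, which had at most 1 count in any library.

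**Figure D4:**
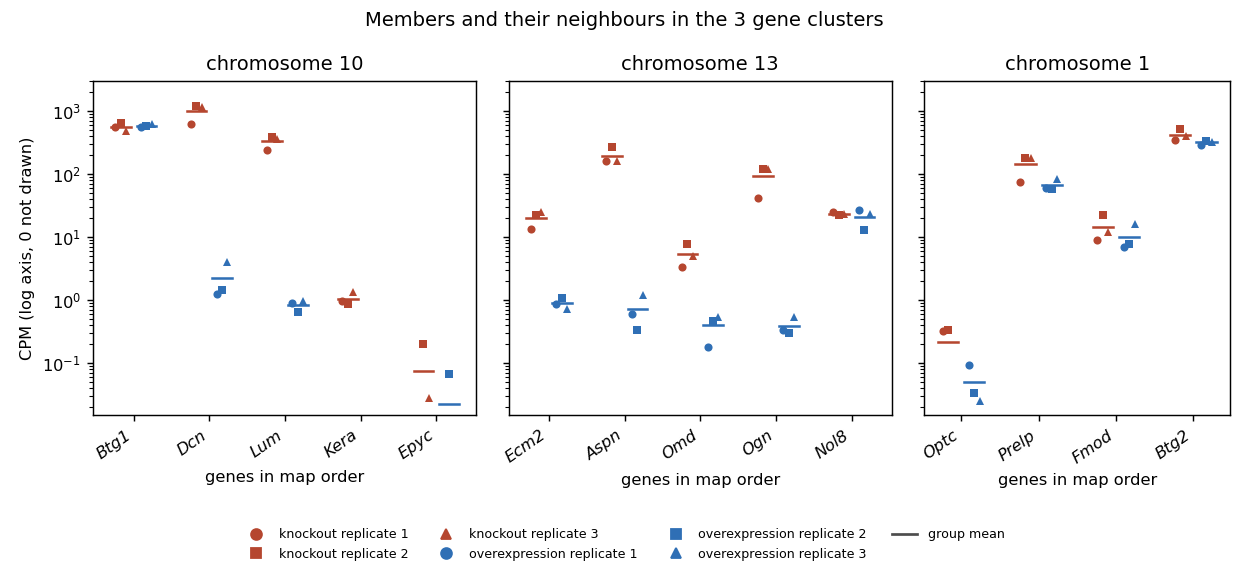
CPM on a log axis for the genes of the 3 clusters in map order, with 1 symbol per library and lines for group means; values of 0, such as all overexpression values of Kera, are not drawn. The members on chromosomes 10 and 13 separate by group, while Prelp and Fmod overlap between groups, as do Btg1 and Nol8.

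The bases before 5 start sites are shown, those of Prelp and Fmod because they had the smallest differences, those of Aspn and Ogn, the outer members of the chromosome 13 cluster, because they hold most of the motif matches, and those of Podn as a strongly lower gene with none. RefSeq start sites (GRCm38.p6) were found for 7 of the 9 genes, and Dcn and Lum had no entry. Each sequence is the 250 bases before the start, 5′ to 3′ on the gene's strand, with capitals where a searched motif matches on either strand. The motifs were TATAAA (the TATA box), CCAAT (the CCAAT box), TGACTCA (an AP-1 site), ACAAAG as well as ACAATG (both SOX-type sites), and CATTCC (a TEAD site). A match is one of bases alone, at any position in the window, and whether it works as the named element was not tested.
Prelp: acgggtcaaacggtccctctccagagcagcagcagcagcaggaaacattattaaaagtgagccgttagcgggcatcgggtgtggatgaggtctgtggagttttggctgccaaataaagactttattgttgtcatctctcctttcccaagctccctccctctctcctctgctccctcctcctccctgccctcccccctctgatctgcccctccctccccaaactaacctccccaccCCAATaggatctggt
Fmod: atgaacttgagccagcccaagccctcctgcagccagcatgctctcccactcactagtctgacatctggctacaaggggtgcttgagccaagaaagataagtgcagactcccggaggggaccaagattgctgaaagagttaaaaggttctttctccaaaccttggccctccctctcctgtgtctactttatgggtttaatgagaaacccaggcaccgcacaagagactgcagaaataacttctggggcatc
Aspn: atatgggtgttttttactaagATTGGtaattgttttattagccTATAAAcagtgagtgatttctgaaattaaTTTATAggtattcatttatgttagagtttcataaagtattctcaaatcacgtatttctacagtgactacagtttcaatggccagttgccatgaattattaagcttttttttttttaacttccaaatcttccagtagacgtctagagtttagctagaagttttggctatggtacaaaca
Ogn: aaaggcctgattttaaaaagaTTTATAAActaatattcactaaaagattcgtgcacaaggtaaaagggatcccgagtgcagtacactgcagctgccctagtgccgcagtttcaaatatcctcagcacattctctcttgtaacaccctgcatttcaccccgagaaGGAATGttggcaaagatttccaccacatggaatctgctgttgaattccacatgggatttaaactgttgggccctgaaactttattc
Podn: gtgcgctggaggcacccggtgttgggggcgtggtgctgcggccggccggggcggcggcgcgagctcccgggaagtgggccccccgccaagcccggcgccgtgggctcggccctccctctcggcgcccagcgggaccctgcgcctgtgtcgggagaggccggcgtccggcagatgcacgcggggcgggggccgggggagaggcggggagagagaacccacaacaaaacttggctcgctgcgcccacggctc

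These windows are chr1:133921402-133921651 (minus strand) for Prelp, chr1:134037004-134037253 (plus) for Fmod, chr13:49544193-49544442 (plus) for Aspn, chr13:49607765-49608014 (plus) for Ogn and chr4:108031955-108032204 (minus) for Podn, which has a further start site in the table. Both windows of Podn lie inside its GENCODE span (108014791 to 108096445). The RefSeq and GENCODE starts of Podn therefore differ, and bases before the outermost GENCODE start were not searched. Among the windows shown, the starts of Prelp and Ogn differ as well. The window of Prelp reaches to 133921402, inside its GENCODE span, which ends at 133921414, and its CCAAT match crosses that GENCODE start. The window of Ogn ends at 49608014, short of the GENCODE start at 49608046. TATAAA matched on each strand in both Aspn and Ogn, and in none of the other windows, including those of Bgn, Omd and Podn. The matches began 207 and 178 bases before the start of Aspn, and 229 and 227 before that of Ogn, where they overlap each other. It is found in 12.4% of 32851 promoter windows of this length. CCAAT matched 15 bases before the start of Prelp and, on the other strand, 229 bases before that of Aspn, beside 33.8% of all windows. CATTCC matched once, on the other strand of Ogn (12.6% of all windows). TGACTCA (4.46% of all windows), ACAAAG (16.5%) and ACAATG (10.7%) matched in no window of the 7 genes. The windows of Fmod, Bgn, Omd and Podn held no match to any of the 6, beside 62.8% of all windows that held at least 1. G and C made 30.0% of the window of Aspn, 38.4% of Omd, 42.0% of Ogn, 51.2% of Fmod, 55.6% of Prelp, 64.4% of Bgn, and 78.0% and 64.0% of the 2 windows of Podn, beside a median of 52.4%. Aspn and Podn, which both fell, lie at the ends of this range. Prelp and Fmod lie between, as do Omd, Ogn and Bgn, which also fell.

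Because the fibrillar collagens fell too, each gene was also expressed as a percentage of the summed counts of Col1a1, Col1a2 and Col3a1 in the same library. These collagens held 5.29% to 7.47% of all counts with knockout and 0.0249% to 0.0385% with overexpression. Relative to them, Ogn (0.0806% to 0.163% with knockout, 0.112% to 0.141% with overexpression) and Aspn (0.220% to 0.345%, and 0.125% to 0.317%) overlapped between groups. Dcn, Lum and Podn were lower with overexpression on this scale also, Dcn going from 1.22% to 1.61% down to 0.523% to 1.08%. Bgn was higher on it, at 2.29% to 2.72% with knockout and 5.98% to 9.5% with overexpression. The gap was widest for Prelp and Fmod, the former at 0.145% to 0.244% with knockout and 21.0% to 25.2% with overexpression, and the latter at 0.0167% to 0.0291% and 2.82% to 4.22%. Omd stood between, at 0.00651% to 0.00982% and 0.0765% to 0.175%. These values are descriptions of the libraries, and no test was made on them.

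**Figure D5:**
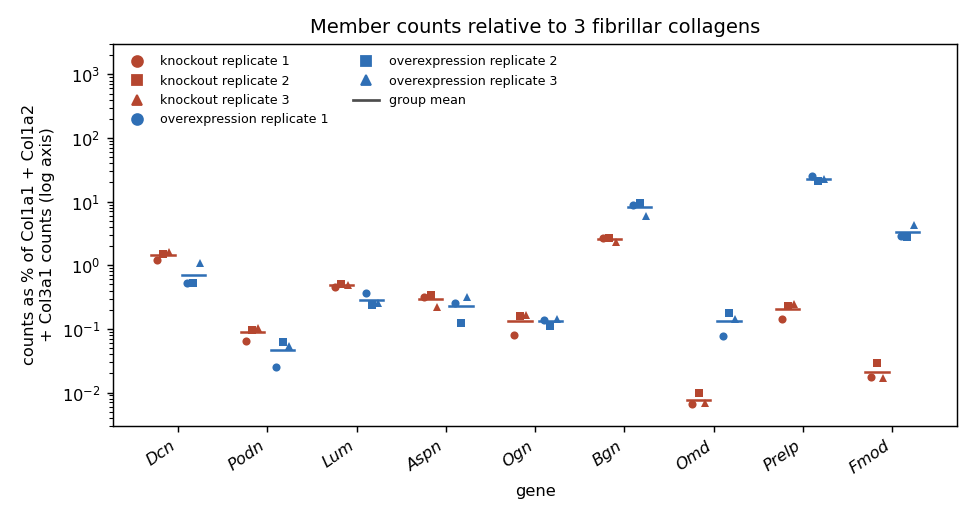
Counts of each gene as a percentage of the counts of Col1a1, Col1a2 and Col3a1 together, on a log axis, with 1 symbol per library and lines for group means. Aspn and Ogn overlap between groups, Dcn, Podn and Lum are lower with overexpression, and Bgn, Omd, Prelp and Fmod are higher on this scale.

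Within the groups the 9 genes also shared an order of libraries. Knockout replicate 1 was the lowest knockout library for 9 of 9, as it was for 34.5% of all tested genes, and overexpression replicate 3 was the highest overexpression library for all but Bgn, 8 of 9, as for 25.6% of all tested genes. The summed fibroblast markers were also lowest in knockout replicate 1 (52730 CPM, beside 81150 and 76150) and highest in overexpression replicate 3 (429.8 CPM, beside 280.3 and 327). These sums are mostly Col1a1, Col1a2 and Col3a1, and not every marker had this order. Pdgfra, Pdgfrb and Twist2 were highest in knockout replicate 1, while the other markers of the list were lowest in it. Fap, Pi16, Twist2 and Mfap5 were not highest in overexpression replicate 3, and the others were. The spread was uneven: the highest knockout library exceeded the lowest 1.54-fold for Bgn and 2.96-fold for Ogn, and the highest overexpression library exceeded the lowest 1.20-fold for Bgn and 3.51-fold for Aspn. Whether the fibroblast markers account for the order was not tested.

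The other genes of the family and its close relatives were lower or scarce. Of 8, 6 were tested, 5 fell and 0 rose, and Epyc and Optc did not pass the count filter, with at most 6 and 11 counts in a library. Kera and Chad passed it through their knockout libraries alone, so their inclusion depended on the group in which they were high. Ecm2, next to Aspn, fell from 20.2 ± 6.10 to 0.889 ± 0.177 CPM and Podnl1, a relative of podocan, from 18.3 ± 1.80 to 1.26 ± 0.461 CPM (SD, n = 3 each), with log2 fold changes of -4.51 and -3.86. Kera, the gene of the corneal proteoglycan keratocan, had 33, 26 and 49 counts with knockout and 0 in each overexpression library. It was at least 10.4-fold lower, set against 3 counts in the overexpression library of smallest TMM-normalized size. Tsku, a secreted modulator of Wnt and BMP signals, fell from 30.2 ± 6.74 to 11.9 ± 2.81 CPM (SD, n = 3 each; adjusted p = 0.00328, edgeR). Chad (chondroadherin) had 11 to 27 counts with knockout and 1 to 7 with overexpression (log2 fold change -2.295, edgeR adjusted p = 0.0371). Its call was lost without any 1 library other than overexpression replicate 2, up to an adjusted p of 0.129. Without overexpression replicate 2 the log2 fold change of Chad was -3.22. Nyx (nyctalopin) had 8 to 30 counts in each library and a log2 fold change interval of -1.20 to 1.60 (adjusted p = 0.829, edgeR).

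Enzymes that build and sulfate the chondroitin, dermatan and keratan sulfate chains were mixed. Of 26, 25 were tested, 14 fell and 3 rose, beside 18.0% lower and 13.6% higher over all tested genes. Their median log2 fold change was -0.98, beside -0.016 over all genes. Xylt1, one of the xylosyltransferases that start a chain, fell from 14.1 ± 1.07 to 0.213 ± 0.0394 CPM (SD, n = 3 each; log2 fold change -6.01), whereas its paralogue Xylt2 was at 33.9 ± 1.15 and 36.4 ± 7.53 CPM (edgeR adjusted p = 0.698). Csgalnact1 and Chsy3, which begin and lengthen chondroitin chains, had log2 fold changes of -6.66 and -6.19 and both fell, Chsy3 on 1, 2 and 6 overexpression counts, its value being -6.97 without overexpression replicate 3. Xylt1 and Chsy3 passed the count filter through their knockout libraries alone, so their inclusion depended on the group in which they were high. Chst3, a chondroitin 6-O-sulfotransferase, rose from 0.909 ± 0.361 to 15.1 ± 2.27 CPM (SD, n = 3 each; log2 fold change 4.05, edgeR adjusted p = 4.88e-05). B3gnt7 and Fam20b rose by 1.15 and 0.44 on the log2 scale, calls that were lost in 4 and 5 of the 6 fits that left out a library. With libraries scaled to the epithelial list their log2 fold changes were -0.15 and -0.81 (adjusted p = 0.765 and 0.0424), and 22 enzymes were lower and 1 higher. Without knockout replicate 1 or 2 or overexpression replicate 1, and with upper-quartile normalization, 1 enzyme rose. The exons of B3gnt7 and Fam20b overlap genes on the other strand.

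Collagens that these proteoglycans bind fell almost throughout. Of 13 genes, 12 fell and 1 rose, with a median log2 fold change of -7.44. Col5a3, Col5a2 and Col1a1 had log2 fold changes of -7.64, -7.44 and -7.55, and Col1a1 went from 23280 ± 3985 to 124 ± 25.6 CPM (SD, n = 3 each). Col2a1, the cartilage collagen, rose on 2 to 10 counts with knockout and 22 to 38 with overexpression (adjusted p = 0.0154, edgeR). That call was lost without knockout replicate 2 (adjusted p = 0.0519), without overexpression replicate 2 (0.0673) and under the epithelial scaling (0.175), and its log2 fold change of 2.39 was 2.99 without knockout replicate 3. Col2a1 passed the count filter through its overexpression libraries alone, so its inclusion depended on the group in which it was high. Of 14 proteases and enhancers that process or cleave the family, 13 were tested, 12 fell and 0 rose. Mmp2, a gelatinase, fell from 1197 ± 312 to 6.32 ± 1.85 CPM (SD, n = 3 each; log2 fold change -7.56). Mmp3 (stromelysin) fell from 320.5 ± 184 to 0.397 ± 0.149 CPM (SD, n = 3 each; log2 fold change -9.68). Adamts1 did not pass the test (log2 fold change -0.56, adjusted p = 0.126, edgeR).

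Receptors and ligands moved less. Of 20 genes 19 were tested, 8 fell and 3 rose, beside 18.0% lower and 13.6% higher over all tested genes. The median log2 fold change of the list was -0.55. Erbb4 did not pass the count filter. Ccn4 (WISP1, a matrix signal known to bind decorin and biglycan) fell from 59.6 ± 8.40 to 1.72 ± 0.521 CPM and Tgfb2 from 17.5 ± 0.385 to 0.639 ± 0.149 CPM (SD, n = 3 each), and their log2 fold changes were -5.11 and -4.76. An antisense gene overlaps exons of Tgfb2. Tgfb1 was at 95.6 ± 6.03 and 83.8 ± 22.4 CPM (SD, n = 3 each; edgeR adjusted p = 0.506). Kdr, the VEGF receptor that decorin can bind, had 157, 233 and 563 counts with knockout and 2, 2 and 4 with overexpression. Its log2 fold change was -6.82, and -6.22 without knockout replicate 3. Kdr passed the count filter through its knockout libraries alone, so its inclusion depended on the group in which it was high. The Toll-like receptor gene Tlr2, its co-receptor Cd14 and the HGF receptor gene Met rose by 1.07, 1.29 and 0.68 on the log2 scale (adjusted p = 0.0183, 0.0345 and 0.0252, edgeR). Each of these 3 calls was lost in at least 2 of the 6 fits that left out a library and under the epithelial scaling, where Tlr2 and Met had log2 fold changes of -0.096 and -0.55, Cd14 one of 0.15, and 16 genes of the list were lower. Without knockout replicate 3, 0 genes of this list rose past the threshold, and 1 did without knockout replicate 2 or overexpression replicate 1.

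Proteoglycans of other families mostly fell. Of 25, 20 were tested, 12 fell and 2 rose, beside 18.0% lower and 13.6% higher over all tested genes. Their median log2 fold change was -1.31. Vcan (versican, a large chondroitin sulfate proteoglycan) fell from 167 ± 24.9 to 2.85 ± 0.868 CPM, Gpc3 (a glypican) from 123 ± 56.2 to 0.513 ± 0.208 CPM and Cspg4 from 8.73 ± 0.569 to 0.256 ± 0.0423 CPM (SD, n = 3 each). Their log2 fold changes were -5.87, -7.88 and -5.07. Agrn (agrin, of basement membranes) rose from 361 ± 15.5 to 687 ± 64.2 CPM and Sdc4 (syndecan 4) from 212 ± 14.7 to 381 ± 42.2 CPM (SD, n = 3 each; adjusted p = 0.00208 and 0.00337, edgeR). Under the epithelial scaling their log2 fold changes were -0.34 and -0.42 and did not pass the threshold. Hspg2, the gene of perlecan, which prolargin binds, fell from 1113 ± 121 to 370 ± 66.7 CPM (SD, n = 3 each; edgeR adjusted p = 0.000376).

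Among 8444 other genes of at least moderate level, those whose log2 CPM followed the mean of the 9 most closely over the 6 libraries were Gem, Anpep, Mfap2, Pmp22 and Cd55, with Pearson correlations of 0.9997 to 0.9984. The correlation is mostly that between the groups, and 576 genes were over 0.95. When 1 library was left out, 0 to 3 of these 5 were again among the first 5, so the choice rests on single libraries. Of the members, Fmod had a correlation of 0.553 and Prelp of 0.82 with that mean, of which each is a part, and the other 7 lay between 0.982 and 0.999.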

How the data were processed

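RNA was sequenced from 6 libraries of a low-input kit, per the labels' protocols. The deposited table gives whole-number counts per gene for each library, which the authors did not normalize. The submitters' processing notes name kallisto 0.44.0 and mm10. The annotation, the strand setting and the step from transcript estimates to whole gene counts are not given in the sources used here, so reads shared by overlapping genes could have been split in more than one way.

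Columns were matched to samples by the description in the labels. Of 55481 rows, 96 are spike-in or construct sequences (at most 2.23e-05% of a library) and were left out. Symbols from GENCODE M21 matched 55144 gene IDs. Low genes were removed by filterByExpr at its minimum count of 10 and total of 15. Mmp3, Gpc3 and Cspg4, like Ogn and Omd, needed knockout libraries to pass. TMM factors and the quasi-likelihood test came from edgeR 4.0.16 in R 4.3.3, with the group as the only term, over 18504 genes. P-values were adjusted by Benjamini-Hochberg over all of them, with a threshold of 0.05. Standard errors are the log2 fold change divided by the square root of F. The alternatives were RLE or upper-quartile size factors, scaling to the epithelial marker list, a filter of 1 count, robust dispersion, a replicate block, DESeq2 1.42.0, and leaving out each library. No 2 replicates agreed within sampling noise (chi-square per degree of freedom at least 44.3). Nothing says that replicates came from separate grafts or cultures, so p-values measure only the spread between these libraries. An observed 0 allows about 3 counts in a library (0.0758 to 0.101 CPM), which covers counting error only.

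The members, gene lists and tests were chosen with earlier results of these data known. The genes named are the 9 members, Sox2, the 8 relatives, the 3 genes of each other list with the smallest p and up to 3 called against the list's main direction, the nearest neighbours of members, and the 5 genes most like them in pattern (average log2 CPM of at least 4). One gene that this rule names among the proteases is not reported here. Among these the cell type marker lists are given by counts and sums. Other named genes (Xylt2, Adamts1, Tgfb1, Hspg2, Cenpp, Scp2, Ibsp and Tnmd) and the ratios between members were chosen after values were seen. The fibroblast markers named for their order of libraries were chosen in the same way. Promoter sequences are from RefSeq (GRCm38.p6).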

Additional observations from a re-analysis of the deposited data

Results flagged for a closer look

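Of the rows that name no mouse gene, mCherry had 8 counts in knockout replicate 3, above the 3 counts that an observed 0 allows, 1 count in knockout replicate 2 and 0 in the other 4 libraries.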

How the results depend on the processing

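The fall of Dcn, Lum, Bgn, Ogn, Aspn, Omd and Podn kept its direction and its side of the threshold in all 13 alternative fits: other size factors, no filter, robust dispersion, the replicate block, DESeq2, scaling to the epithelial list and leaving out each library. The count of members that fell was 7 to 9, with 7 in the 4 fits that lost Prelp and 9 under the epithelial scaling, which called Fmod. That scaling moved the median log2 fold change of all genes from -0.016 to -1.29 and the number of genes called from 5848 to 13127, of which 97.6% were lower in place of 56.9%. It gave log2 fold changes of -10.20 for Dcn and -2.45 for Prelp. With longest transcripts as lengths, Dcn and Bgn made 73.1% of the knockout pool in place of 59.2%, as the length of Bgn is then 2666 in place of 6099 bases. Of the 5 genes most like the members in pattern, 0 to 3 were kept when 1 library was left out. The replicate numbers did not pair the libraries (correlations of deviations 0.0508, 0.0223 and -0.0399 for equal numbers, and not every library was closest to its own number), and the replicate block called 5593 genes and 8 members. Of the genes named, Chad (adjusted p = 0.0598), B3gnt7 (0.0622) and Fam20b (0.0691) were not called with it and Haus7 was. Counts of 0 to 8 per overexpression library limit the folds of Podn, Kera, Chsy3, Kdr and Chad.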
